A study of Mus musculus with 31 samples.

Results

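The collagen chains of the kidney were examined in a mouse model of polycystic kidney disease treated with the anti-miR-17 oligonucleotide RGLS4326. Members were all rows named as a numbered collagen alpha chain that reached 10 counts in at least 5 mice. The rule kept 37 of 44 collagen rows, out of 23509 genes counted in all. The 7 collagens under the minimum were Col2a1, Col9a1, Col9a2, Col10a1, Col22a1, Col25a1 and Col28a1. At the edge of the rule, Col9a3 reached 10 counts in 23 mice and was kept, and Col9a2 reached it in 2 mice and was left out. All 37 members passed the filter on low counts and were tested.

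Whole-kidney mRNA was sequenced from 31 mice. The 12 mice of the PBS group and the 14 of the RGLS4326 group were Pcy/CD1, which carry the Pcy mutation on the CD1 background and develop cysts slowly. Both groups were injected under the skin from 5 weeks of age and killed at 30 weeks, RGLS4326 at 25 mg kg−1 once a month. The sample labels give PBS as weekly, whereas the protocol text reads as monthly for both. The 5 wild-type mice, also 30 weeks old, were untreated CD1 males without the mutation and without injections, so that genotype and injection cannot be told apart in any comparison with them.

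Collagens are triple helices of 3 alpha chains, each chain encoded by its own gene. Fibrillar collagens (types I, III and V among them) form the cables of the interstitium, and fibril-associated collagens sit on their surface. Type IV collagen forms the sheet of the basement membrane under every tubule and around the glomerular capillaries, where the α1 and α2 chains of the embryo are complemented by α3, α4 and α5 in the mature glomerulus. Type VI collagen forms beaded filaments beside cells, and the multiplexins types XV and XVIII lie at basement membranes. In kidney disease, deposits of fibrillar collagen by fibroblasts and pericytes are the substance of interstitial fibrosis.

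RGLS4326 is complementary to the seed of the miR-17 family, and the miR-29 family is the family best known for pairing with collagen mRNAs. The mature sequences below are from RefSeq on GRCm38.p6, with the seed (bases 2 to 8) in capitals. They are shown because the seed sets which collagen mRNAs hold a matching site.
miR-17-5p: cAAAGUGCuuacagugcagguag
miR-20a-5p: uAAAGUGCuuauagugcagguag
miR-29a-3p: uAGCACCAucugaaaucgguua
miR-29b-3p: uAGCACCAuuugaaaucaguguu
miR-29c-3p: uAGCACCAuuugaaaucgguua
miR-17-5p and miR-20a-5p share 1 seed, and the 3 members of the miR-29 family share another.

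A 3′UTR was annotated for 36 of the 37 members. The miR-17 match GCACTTT stood in 5 of these 36 (13.9%), against 13.2% of the 13736 tested genes with a 3′UTR. The miR-29 match TGGTGCT stood in 21 of 36 (58.3%), against 14.2% of the same genes. The median 3′UTR was 1080 bases long in members and 995 bases in all these genes. A match is a description of the sequence and not a measured site. All miR-17 matches of the collagen chains are printed here as the mRNA reads, with the match in capitals.
Col4a3 chr1:82719692-82719698, plus strand: ttactaaatgtGCACTTTatccccactcc
Col4a4 chr1:82452602-82452608, minus strand: ttttaagccagGCACTTTaaataattgtg
Col4a4 chr1:82451550-82451556, minus strand: cacttttcagtGCACTTTagaataattga
Col4a2 chr8:11448984-11448990, plus strand: aggagatgataGCACTTTtttctatcaaa
Col17a1 chr19:47646435-47646441, minus strand: tttttatttaaGCACTTTccactgtctaa
Col26a1 chr5:136742704-136742710, minus strand: ggccagctcagGCACTTTccctatattgt
In Col4a3 and at both positions in Col4a4 the match is followed by an A, which makes it an 8mer. For comparison, miR-29 matches of 3 abundant chains are given in the same way.
Col1a1 chr11:94952538-94952544, plus strand: gaaggaatttcTGGTGCTatagaagctga
Col3a1 chr1:45348982-45348988, plus strand: aaatgtctcaaTGGTGCTataataaataa
Col4a1 chr8:11199762-11199768, minus strand: ccgtcacaacaTGGTGCTactcccccccc

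The 6 type IV genes lie as 3 head-to-head pairs, each pair sharing the stretch from which its members are transcribed in opposite directions. Col4a1 begins at base 11312826 of chromosome 8 and Col4a2 at 11312805, so that their first exons overlap. Col4a4 begins at 82586849 of chromosome 1 and Col4a3 at 82586921. Col4a6 and Col4a5 begin 1309 bases apart on the X chromosome. The plus strand of GRCm38 is printed for the 2 close pairs, because later results turn on whether paired genes kept pace. Capitals mark the 22 bases covered by both genes in the first line and the 73 bases from start to start in the second.
Col4a1/Col4a2 chr8:11312797-11312834: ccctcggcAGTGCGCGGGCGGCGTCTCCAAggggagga
Col4a4/Col4a3 chr1:82586841-82586929: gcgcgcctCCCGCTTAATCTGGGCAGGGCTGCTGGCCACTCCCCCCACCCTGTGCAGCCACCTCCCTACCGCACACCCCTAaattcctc
Promoters of 300 bases were held for 30 members. The GC box GGGCGG, searched on both strands, stood in 20 of them (66.7%), against 61.5% of the 11266 promoters held for tested genes and 35.9% of all 27025 promoters. The box CCAAT stood in 36.7% against 38.1% and 37.9%, and TATAAA in 13.3% against 7.71% and 14.2%.

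Levels are given as CPM, the counts of a gene relative to a library size scaled with edgeR's TMM factors. Log2 fold changes and their standard errors (SE) are from 1 edgeR quasi-likelihood fit to all 31 mice. A gene is called at an adjusted p under 0.05 over the 15185 genes tested. Gene counts per mouse ran from 14892524 to 27459962. In some marker sums RGLS4326-treated mouse 9 stood near the wild type. Its macrophage sum was the lowest of its group (145 CPM, wild type 147 to 156 CPM). Its proximal tubule sum was the highest (13310 CPM, wild type 14440 to 15530 CPM). Its fibroblast and pericyte sum, the lowest of its group, stayed above the wild-type range (277 CPM, wild type 202 to 226 CPM). Its endothelial sum, the highest of its group, also lay above that of wild type (503 CPM, wild type 329.5 to 461 CPM). Wild-type mouse 5, the single wild-type mouse of the third series of libraries (a series is a run of numbers in the library names), stood apart from the other 4 in Col4a1. The collagens of mouse 9 were also unlike those of the other Pcy/CD1 mice, so its label is in doubt, and whether the label is right was not tested. Main results that rest on either mouse are given with and without it. Of the pairs of mice within a group, wild-type 3 and 4 had the most similar counts, with a chi-square of 2.53 per gene where sampling noise alone gives about 1, and they were counted separately. Nothing was known of litters, so p-values measure the spread between these mice.

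Cell type markers differed strongly between Pcy/CD1 and wild-type kidneys, and whole-kidney RNA cannot tell fewer cells of a type from less RNA per cell. The summed level of 10 fibroblast and pericyte markers ran from 202 to 226 CPM in wild type, 321 to 649 CPM with PBS and 277 to 677 CPM with RGLS4326, and 8 of the 10 rose with PBS against wild type, where 74.3% of all genes were called, 37.7% higher and 36.6% lower. All 6 macrophage markers rose and all 6 proximal tubule markers fell in that comparison. Of 8 endothelial markers 4 fell and of 8 podocyte markers 5 rose. Of 6 loop and distal markers 2 rose and 2 fell. With treatment, 2 of 6 proximal tubule markers rose against PBS, 1 of 10 fibroblast and pericyte markers (Cspg4), 1 of 8 podocyte markers (Plce1) and 2 of 6 loop and distal markers fell, and 0 of 6 macrophage and 0 of 8 endothelial markers were called, where 15.8% of all genes were. No marker was at 0 in any mouse. The part of these shifts in the collagen results was not tested.

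Per length of mRNA, the collagen RNA of the wild-type kidney was mostly that of the basement membrane. Col4a1 came first at 56.9 ± 41.2 CPM per kilobase (SD, n = 5), followed by Col4a3 at 46.1 ± 3.62 and Col4a4 at 38.2 ± 2.34 CPM per kilobase. The first place and the large SD of Col4a1 come from mouse 5. Without it Col4a3 came first at 45.6 ± 3.99 CPM per kilobase (SD, n = 4) and Col4a1 second at 38.6 ± 5.96. Col1a1 stood at place 15 of 37 with 2.6 ± 1.14 CPM per kilobase and Col3a1 at place 11. In PBS-treated kidneys Col18a1 came first at 84.4 ± 14.6 CPM per kilobase (SD, n = 12), before Col4a1 at 63.3 ± 7.16 and Col3a1 at 48.9 ± 10.9 CPM per kilobase. Col1a1 stood at place 7 there. With RGLS4326 the order began with Col18a1 (67.1 ± 13.9 CPM per kilobase, SD, n = 14), Col4a1 (56.3 ± 8.34) and Col4a2 (40.8 ± 5.74), and without mouse 9 Col3a1 took the third place. Col6a4 was last in all 3 groups.

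PBS-treated Pcy/CD1 kidneys were first compared with wild type, which asks how the diseased kidney's collagens differ. Of the 37 chains 33 were called (89.2%), where 74.3% of all genes tested were called. Higher levels with PBS were called for 26 chains, against a background of 37.7% of genes higher, and lower levels for 7 chains, against 36.6% of genes lower. With an absolute log2 fold change over 0.5 as well, 31 chains remained, and 42.4% of all genes passed. The median log2 fold change was 1.32 over the members and 0.01 over all genes. The groups did not overlap for 25 chains, of which 19 were higher and 6 lower with PBS, whereas 42.2% of all genes did not overlap. The chains that were not called were Col4a1, Col14a1, Col20a1 and Col24a1.

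**Figure D1:**
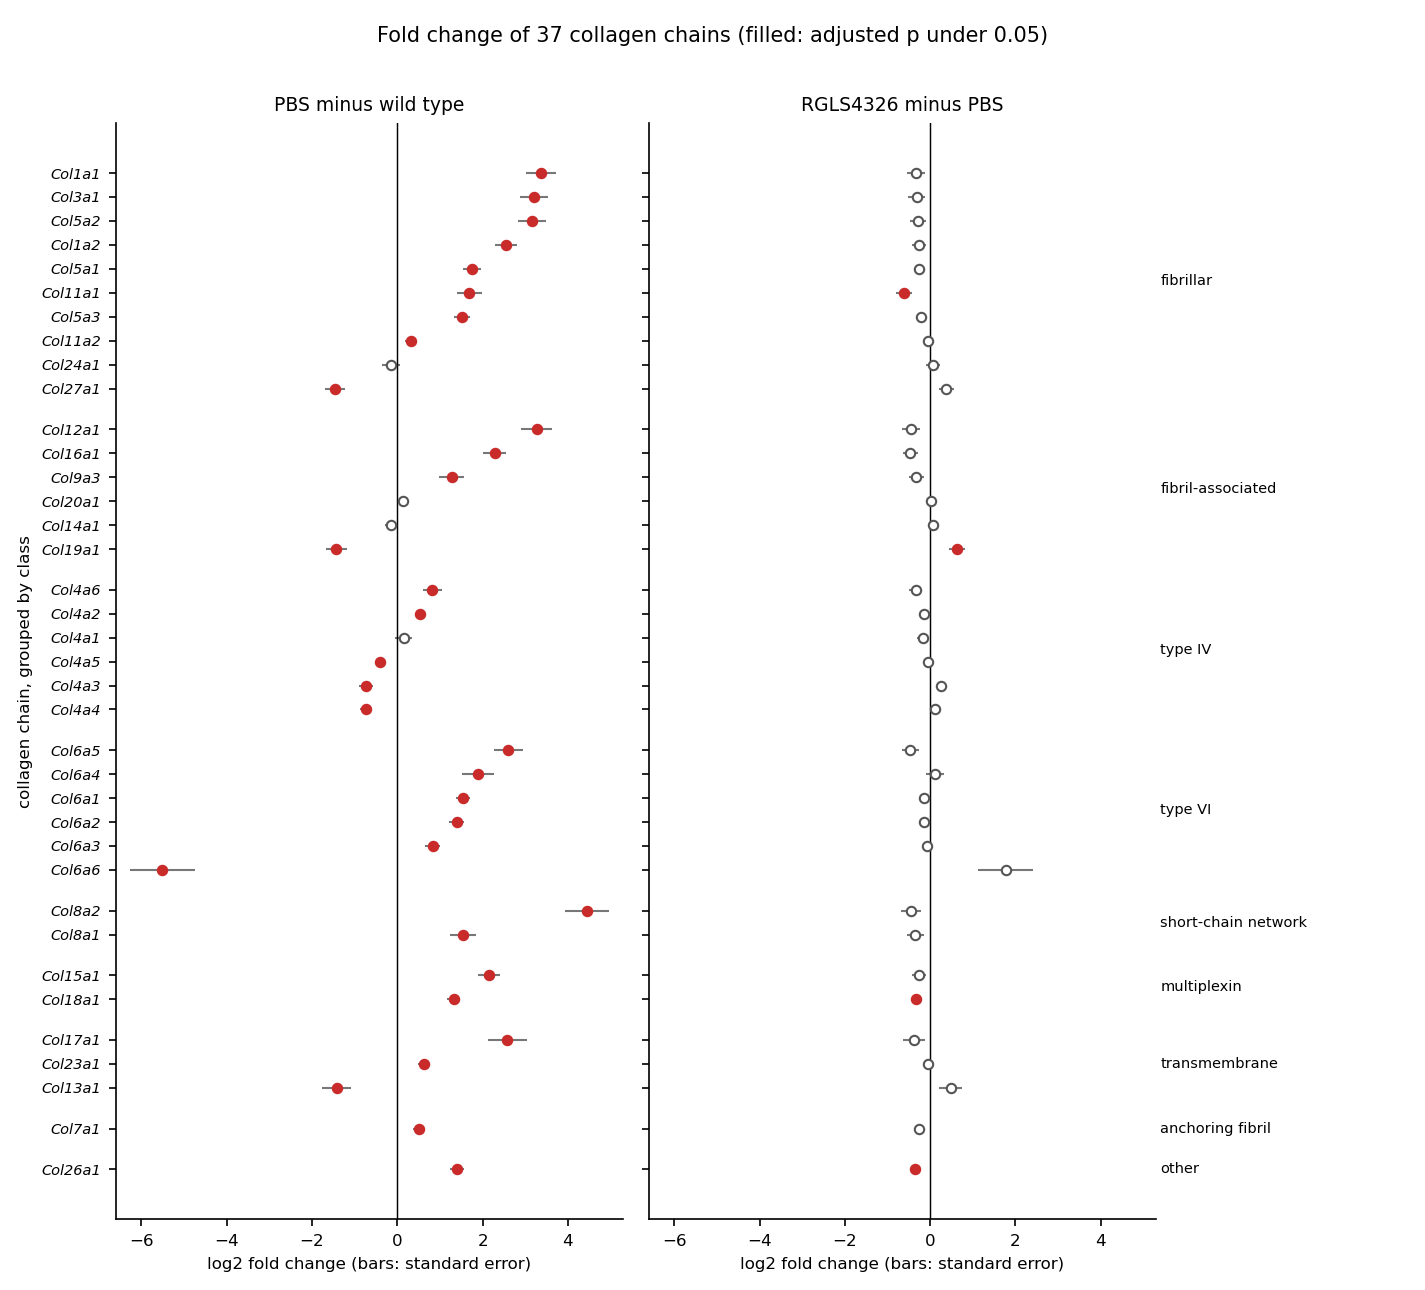
Log2 fold change of each of the 37 collagen chains (points) with its standard error (bars), for PBS minus wild type on the left and RGLS4326 minus PBS on the right, grouped by collagen class. Filled points have an adjusted p under 0.05: 33 chains on the left, from −5.50 (Col6a6) to 4.44 (Col8a2), and 4 on the right.

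Fibrillar chains were higher for 8 of 10, lower for 1 and not called for 1, with a median log2 fold change of 1.72. Col1a1, the gene of the α1 chain of type I collagen (chromosome 11, bases 94936224 to 94953042), read 9.496, 9.39, 23.8, 21.3 and 13.1 CPM in the wild-type mice. It ran from 103 to 213 CPM with PBS (median 166) and from 18.8 to 216 CPM with RGLS4326 (median 134.5). Every PBS-treated mouse lay far above every wild-type mouse, and among treated mice only mouse 9 fell into the wild-type range. The mean was 15.4 ± 6.74 CPM (SD, n = 5) in wild type and 159 ± 41.3 CPM (SD, n = 12) with PBS, a log2 fold change of 3.37 (SE 0.36, adjusted p = 8.4e-09) or 10.3-fold.

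Col1a2, which encodes the α2 chain of the same molecule, read 25.9, 32.4, 50.3, 48.4 and 37.3 CPM in wild type. With PBS it ran from 144 to 303 CPM (median 224) and with RGLS4326 from 51.7 to 305 CPM (median 197). The groups of PBS and wild type did not overlap, and treated mouse 9 lay just above the highest wild-type mouse. The log2 fold change with PBS was 2.55 (SE 0.26, adjusted p = 5.7e-09).

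Col3a1, the single chain of type III collagen, read 18.6, 20.8, 38.8, 40.6 and 28.3 CPM in wild type. It ran from 167 to 367 CPM with PBS (median 267) and from 35.0 to 375 CPM with RGLS4326 (median 217). PBS and wild type were again apart, by a log2 fold change of 3.21 (SE 0.33, adjusted p = 4.5e-09). Col5a2, a chain of type V collagen, on which fibrils are started, read 3.95, 2.79, 6.51, 7.08 and 3.97 CPM in wild type and 22.2 to 58.6 CPM with PBS (median 45.7). With RGLS4326 it ran from 6.19 to 61.2 CPM (median 35.4). Its groups of PBS and wild type did not overlap (log2 fold change 3.16, SE 0.33, adjusted p = 7.1e-09).

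The remaining fibrillar chains moved less or the other way. Col5a1 and Col5a3, also of type V, and Col11a1, of the closely related type XI, rose by log2 fold changes of 1.76, 1.53 and 1.69. Col11a2 rose by 0.32 (adjusted p = 0.0296), a call that was lost without wild-type mouse 1, 2 or 5 in turn (log2 fold change 0.19 without mouse 1, adjusted p = 0.172). Col24a1 did not pass (−0.15, adjusted p = 0.515). Col27a1, a fibrillar chain of cartilage and other tissues, read 183, 212, 302, 301 and 152 CPM in wild type and 67.1 to 111 CPM with PBS (median 76.6). It ran from 71.3 to 288 CPM with RGLS4326 (median 96.9), where mouse 9 was the highest and the next reached 154 CPM. All PBS-treated mice were below all wild-type mice, and the log2 fold change was −1.46 (SE 0.22, adjusted p = 1.2e-06).

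**Figure D2:**
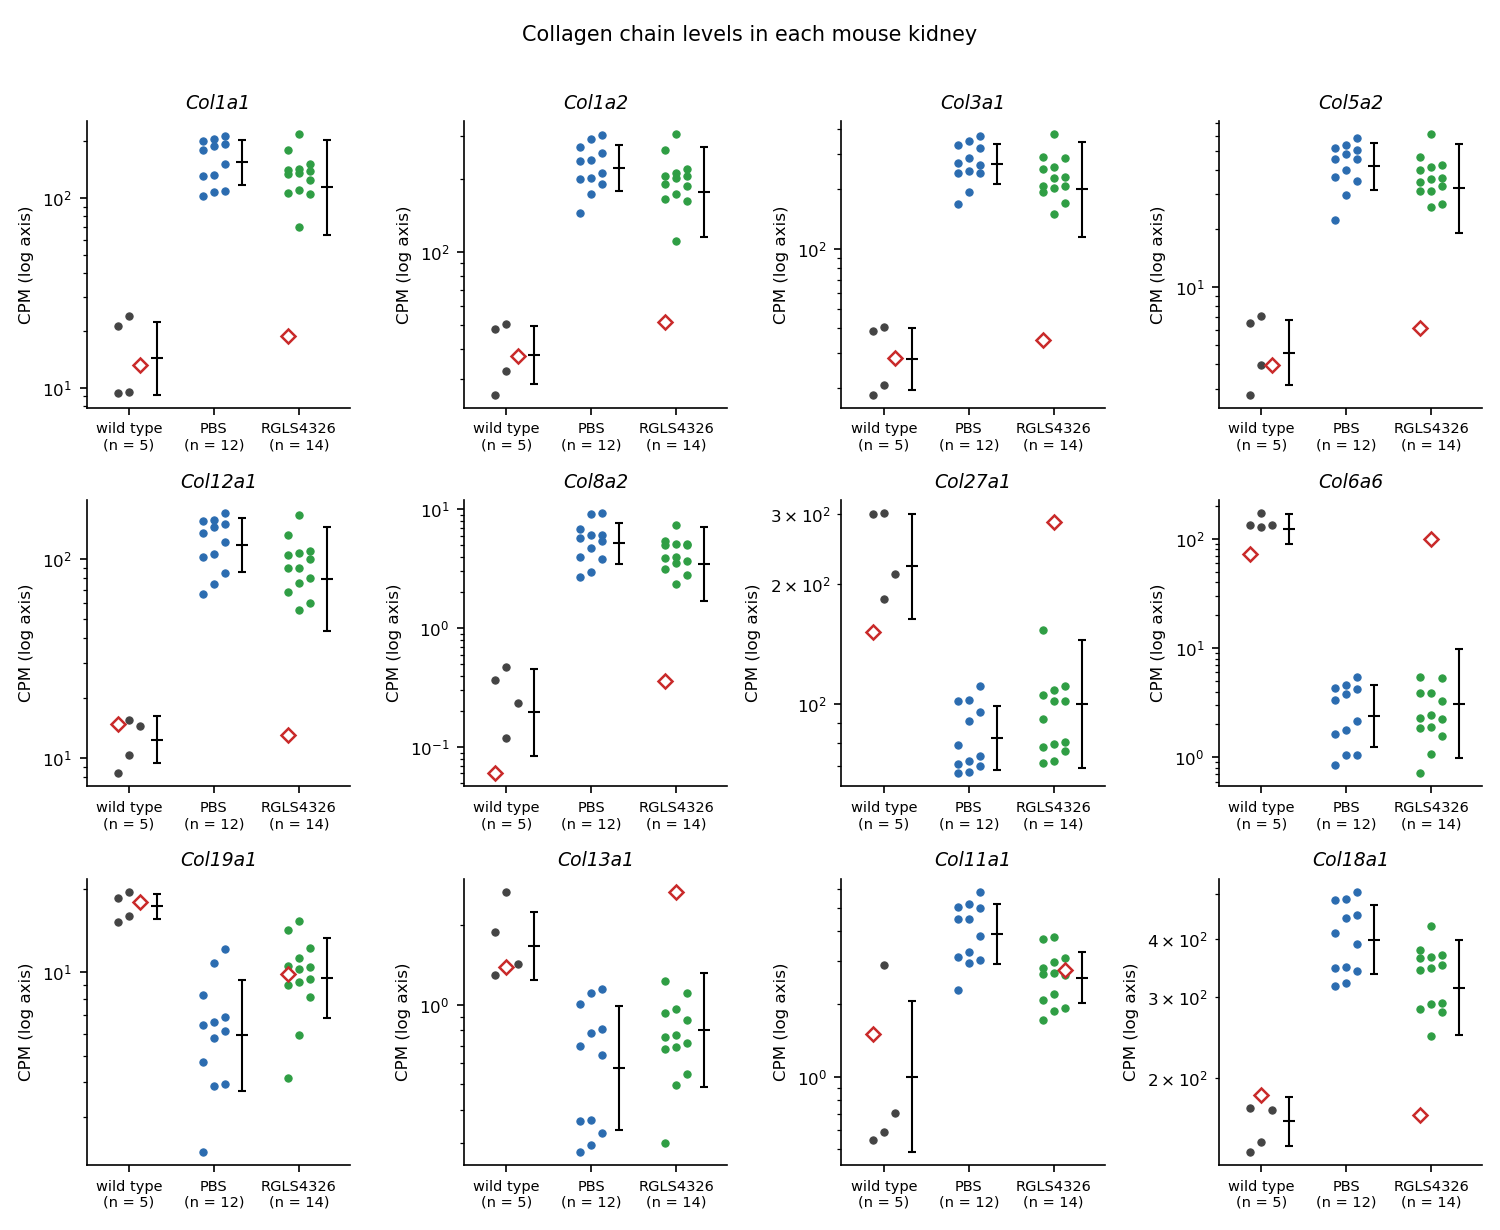
Level of 12 collagen chains in each kidney (points, CPM on a log axis) by group, with the geometric mean and geometric SD beside the points. Open red diamonds are wild-type mouse 5 and RGLS4326-treated mouse 9. In the panels of Col1a1, Col1a2, Col3a1, Col5a2, Col12a1 and Col8a2 the Pcy/CD1 mice other than mouse 9 lie above all wild-type mice, and in that of Col6a6 they lie below them.

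Fibril-associated chains rose for 3 of 6 (Col9a3, Col12a1 and Col16a1), fell for 1 (Col19a1) and were not called for 2 (Col14a1 and Col20a1). Col12a1, a long chain that coats type I fibrils, read 8.38, 10.3, 15.6, 14.5 and 14.9 CPM in wild type. It ran from 66.7 to 171 CPM with PBS (median 129) and from 13.04 to 167 CPM with RGLS4326 (median 90.7). No PBS-treated mouse overlapped wild type (log2 fold change 3.27, SE 0.36, adjusted p = 1.4e-08), and the low value with RGLS4326 was that of mouse 9.

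Col19a1, a fibril-associated chain found near basement membranes, went the other way. The wild-type mice read 15.2, 15.9, 19.5, 18.4 and 17.8 CPM, a narrow range. The level ran from 2.25 to 12.1 CPM with PBS (median 6.29) and from 4.17 to 15.25 CPM with RGLS4326 (median 10.1). PBS-treated mice were all below wild type (log2 fold change −1.43, SE 0.24, adjusted p = 5.6e-06). Col14a1 and Col20a1 differed from wild type by −0.15 and 0.13 on the log2 scale (adjusted p = 0.331 and 0.148).

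The type IV chains went in both directions. Col4a2 and Col4a6 rose, Col4a3, Col4a4 and Col4a5 fell, and Col4a1 did not pass over all mice. Col4a1 read 228, 215, 289, 290 and 860 CPM in wild-type mice 1 to 5. It ran from 340 to 483 CPM with PBS (median 426) and from 265 to 463 CPM with RGLS4326 (median 384). Wild-type mouse 5 lay above every Pcy/CD1 mouse and the other 4 below every PBS-treated mouse. The log2 fold change with PBS was 0.15 (SE 0.20, adjusted p = 0.481), and without wild-type mouse 5 it was 0.71 (SE 0.12, adjusted p = 5.2e-06). Within the series of libraries that mouse 5 did not belong to, it was 0.96 (adjusted p = 0.0035) and 0.51 (adjusted p = 0.016).

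Col4a2, whose product joins 2 α1 chains in the basement membrane of every vessel and tubule, read 176, 176, 222, 223 and 196 CPM in wild type. It ran from 229 to 340 CPM with PBS (median 291) and from 193 to 331 CPM with RGLS4326 (median 264). Wild-type mouse 5 did not stand out here, and PBS-treated mice were all above wild type (log2 fold change 0.54, SE 0.10, adjusted p = 1.6e-05).

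Col4a3 and Col4a4, whose products form the glomerular basement membrane together with that of Col4a5, were both lower. Col4a3 read 347, 379, 412, 423 and 410.4 CPM in wild type, 144 to 345 CPM with PBS (median 244) and 178 to 369 CPM with RGLS4326 (median 305). Col4a4 read 397, 412, 359, 363 and 400 CPM in wild type, 177 to 300.2 CPM with PBS (median 233) and 170.4 to 362 CPM with RGLS4326 (median 247). For both genes no PBS-treated mouse reached the wild-type range, while treated mice 6, 9 and 10 did for Col4a3 and mouse 9 did for Col4a4. The log2 fold changes with PBS were −0.72 for Col4a3 (SE 0.16, adjusted p = 2.2e-04) and −0.74 for Col4a4 (SE 0.13, adjusted p = 7.3e-06).

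Col4a5, the X-linked partner of both, read 54.9, 68.2, 61.9, 58.9 and 63.2 CPM in wild type and 38.4 to 56.5 CPM with PBS (median 44.9). With RGLS4326 it ran from 31.8 to 62.1 CPM (median 43.3), and PBS-treated mouse 6 and treated mice 6 and 9 reached the wild-type range. The log2 fold change with PBS was −0.41 (SE 0.11, adjusted p = 8.8e-04). Col4a6, whose product pairs with that of Col4a5 in Bowman's capsule and in the membranes of some tubules, was the scarcest type IV chain. It read 3.66, 9.39, 2.72, 3.39 and 6.62 CPM in wild type, 6.31 to 12.6 CPM with PBS (median 8.87) and 4.59 to 9.46 CPM with RGLS4326 (median 7.23). Wild-type mice 2 and 5 lay inside the PBS range and the other 3 below it (log2 fold change 0.82, SE 0.22, adjusted p = 0.0015). The rise was 0.36 in the first series of libraries (adjusted p = 0.465) and 1.53 in the second (adjusted p = 0.0046).

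**Figure D3:**
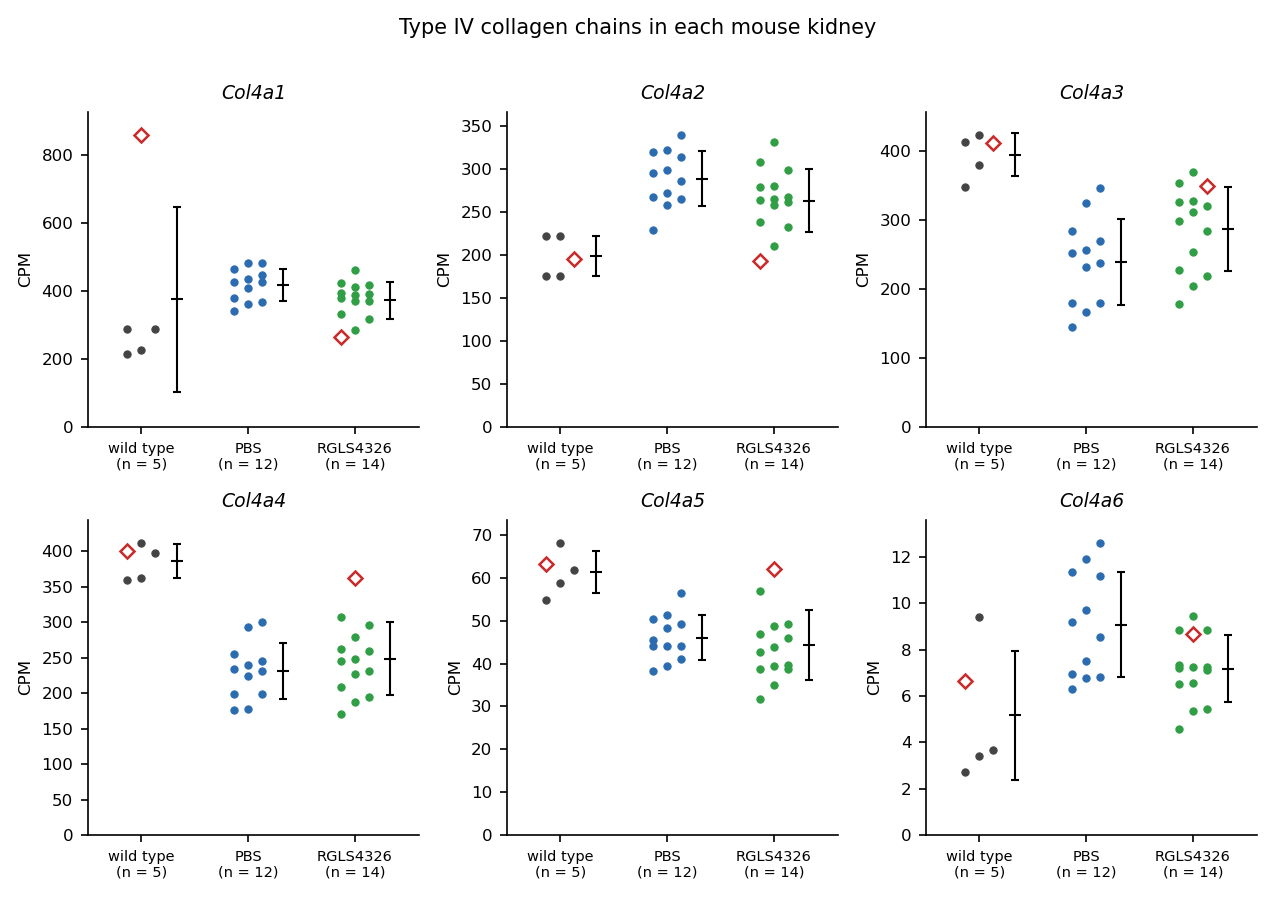
Level of the 6 type IV collagen chains in each kidney (points, CPM on a linear axis from 0) by group, with mean and SD beside the points. Open red diamonds are wild-type mouse 5, which reads 860 CPM for Col4a1 and 196 CPM for Col4a2, and RGLS4326-treated mouse 9. PBS-treated mice lie above wild type for Col4a2 and below it for Col4a3 and Col4a4.

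Type VI chains were all called, 5 of them higher and 1 lower, with a median log2 fold change of 1.47. Col6a1, Col6a2 and Col6a3, which build the common type VI filament, rose by 1.54, 1.40 and 0.83 on the log2 scale. Col6a4 and Col6a5, which can take the place of the α3 chain, rose by 1.89 and 2.61 from below 1.2 CPM in every wild-type mouse. Col6a6, the third such chain, read 133.5, 171.5, 133, 128 and 72.3 CPM in wild type. It ran from 0.845 to 5.43 CPM with PBS (median 2.74) and from 0.715 to 99.2 CPM with RGLS4326 (median 2.36). Every Pcy/CD1 mouse but treated mouse 9 lay below 6 CPM, since the next highest treated mouse read 5.49 CPM. This was the steepest fall of any collagen (log2 fold change −5.50, SE 0.76, adjusted p = 2.4e-07), or 45.4-fold.

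Chains of the smaller classes mostly rose. Col8a2, a short chain that forms hexagonal networks, read 0.236, 0.119, 0.473, 0.363 and 0.0602 CPM in wild type. It ran from 2.69 to 9.29 CPM with PBS (median 5.58) and from 0.358 to 7.36 CPM with RGLS4326 (median 3.92). The groups of PBS and wild type were apart, by the largest estimated rise of any collagen (log2 fold change 4.44, SE 0.51, adjusted p = 2.3e-08). The wild-type counts of Col8a2 were few, and no wild-type mouse reached the minimum count of the member rule. Col8a2 was thus a member through Pcy/CD1 mice alone. The groups show the direction of its change, but the size of the rise and its first place rest on these few counts. Col8a1 rose by 1.54. Col15a1 and Col18a1, the multiplexins, rose by 2.15 and 1.32. Col18a1, whose product is cut to release endostatin, read 138, 145, 170.1, 172 and 184 CPM in wild type, 316 to 507 CPM with PBS (median 401) and 166 to 428 CPM with RGLS4326 (median 345). PBS-treated mice all lay above wild type (adjusted p = 2.5e-08).

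Among the transmembrane chains, Col17a1 (of hemidesmosomes) rose by 2.58 and Col23a1 by 0.62, and Col13a1 fell. Col13a1, found at cell junctions and the neuromuscular synapse, read 1.30, 1.43, 2.66, 1.88 and 1.39 CPM in wild type and 0.278 to 1.15 CPM with PBS (median 0.671). With RGLS4326 it ran from 0.300 to 2.66 CPM (median 0.761). PBS lay wholly below wild type (log2 fold change −1.42, SE 0.34, adjusted p = 4.4e-04), and the treated group overlapped wild type through mouse 9 alone. Col7a1, of anchoring fibrils, rose by 0.51 and Col26a1 by 1.41.

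Within the series of libraries, 29 chains were called in the first alone and 30 in the second alone, where 42.5% and 45.7% of genes were called. No such comparison was made in the third, with its single wild-type mouse. Col1a1 rose by 4.12 and 2.78, Col3a1 by 3.90 and 2.71, and Col6a6 fell by 5.35 and 5.52 on the log2 scale in the first and second. The change of Col4a3 was −0.47 in the first (adjusted p = 0.133) and −0.74 in the second (adjusted p = 0.0487).

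RGLS4326 was next compared with PBS, which asks what treatment changed in kidneys of the same genotype. If PBS was given weekly, as the labels read, the frequency of injection differed too and cannot be told apart from the drug. Of 37 chains 4 were called (10.8%), where 15.8% of all genes were called. Of these 1 was higher, against 9.15% of genes higher, and 3 were lower, against 6.66% of genes lower. With an absolute log2 fold change over 0.5 as well 2 remained, and 2.15% of all genes passed. The median log2 fold change was −0.215 over the members and −0.00428 over all genes. The estimate was negative for 27 of 37 chains (73.0%) and for 51.1% of all genes, and most of these estimates did not pass the test one by one. Without mouse 9, 4 chains were called again, where the background was 8.14%, so the collagen share was below the background with that mouse and above it without, and no difference from the background is read from either. The median over the members was then −0.16. Within the 3 series of libraries alone, with mouse 9 kept, that median was −0.06, −0.23 and −0.19.

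Col11a1, a minor fibrillar chain of type XI, read 0.708, 2.91, 0.592, 0.545 and 1.51 CPM in wild type. It ran from 2.29 to 5.82 CPM with PBS (median 4.16) and from 1.72 to 3.78 CPM with RGLS4326 (median 2.67). The 2 Pcy/CD1 groups overlapped over much of their range. Treated mice averaged 2.63 ± 0.635 CPM (SD, n = 14) and those given PBS 4.05 ± 1.11 CPM (SD, n = 12), which differ by −0.62 on the log2 scale (SE 0.18, adjusted p = 0.0291).

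Col19a1, which was low with PBS, was higher with RGLS4326 by 0.63 on the log2 scale (SE 0.19, adjusted p = 0.0313). It averaged 9.99 ± 2.89 CPM (SD, n = 14) in treated mice against 6.48 ± 2.82 CPM (SD, n = 12). It was the single collagen called higher with treatment, and of the treated mice mouse 8 alone reached the wild-type range of 15.2 to 19.5 CPM.

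Col26a1, a secreted chain outside the main classes, read 4.42, 6.18, 3.55, 3.03 and 4.70 CPM in wild type, 9.18 to 15.1 CPM with PBS (median 11.2) and 4.70 to 11.7 CPM with RGLS4326 (median 9.05). It was lower with treatment by a log2 fold change of −0.36 (SE 0.11, adjusted p = 0.0318), with overlapping groups. Col18a1 was lower by −0.33 (SE 0.11, adjusted p = 0.0365), from 404 ± 69.9 CPM (SD, n = 12) to 321 ± 66.8 CPM (SD, n = 14). Without mouse 9 the adjusted p was 0.0391 for Col11a1, 0.0439 for Col19a1, 0.0433 for Col26a1 and 0.0474 for Col18a1.

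These 4 calls lay near the threshold and were sensitive to single mice. Without PBS-treated mouse 10, 0 of 37 were called by edgeR (7 at an unadjusted p under 0.05), and the share of all genes called was 4.08%. Without PBS-treated mouse 2, 3 or 5, or without RGLS4326-treated mouse 8 or 13, 1 was called, and without PBS-treated mouse 9 it was 2. The shares of all genes called fell as well, to 7.47, 6.07, 5.21, 6.76, 7.81 and 5.55% in that order. Without PBS-treated mouse 4 or without RGLS4326-treated mouse 2, 8 were called, beside 25.5% and 26.4% of all genes. Within each series of libraries alone 0 chains and 0 genes of any kind were called by edgeR, and 1, 7 and 5 chains had an unadjusted p under 0.05. The log2 fold changes in the 3 series were −0.87, −0.51 and −0.50 for Col11a1, 0.25, 0.71 and 0.91 for Col19a1, −0.20, −0.61 and −0.26 for Col26a1, and −0.06, −0.45 and −0.46 for Col18a1.

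The abundant fibrillar chains had lower means with RGLS4326 but did not pass. Col1a1 had a log2 fold change of −0.33 (SE 0.21, adjusted p = 0.252), with a 95% interval from −0.75 to 0.08. Col1a2 had −0.26 (SE 0.17, adjusted p = 0.253) and Col3a1 −0.31 (SE 0.20, adjusted p = 0.247). Without mouse 9, which was low in all 3, Col1a1 had −0.24 (adjusted p = 0.291). Col12a1 had −0.45 (adjusted p = 0.125), Col8a2 −0.45 (adjusted p = 0.172) and Col5a2 −0.29 (adjusted p = 0.262). Col16a1, a fibril-associated chain, had −0.46 (SE 0.17, adjusted p = 0.0574) and Col7a1 −0.26 (SE 0.09, adjusted p = 0.0505), both close to the threshold.

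Col6a6 had the largest estimate of treatment, 1.77 (SE 0.65, adjusted p = 0.0564), and it rested on mouse 9. Without that mouse it was −0.02 (SE 0.30, adjusted p = 0.963). Col27a1 had 0.38 (adjusted p = 0.117), and 0.18 without mouse 9 (adjusted p = 0.302).

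Of the type IV chains 0 of 6 were called with treatment by edgeR or by DESeq2, which called 15.8% and 21.1% of all genes, and Col4a3 and Col4a6 had an unadjusted p under 0.05. Col4a3 had a log2 fold change of 0.27 (SE 0.12, adjusted p = 0.119; without PBS-treated mouse 4, adjusted p = 0.0487), Col4a4 0.10 (adjusted p = 0.445) and Col4a5 −0.06 (adjusted p = 0.620). Without mouse 9 the values of Col4a4 and Col4a5 were 0.05 and −0.10 (adjusted p = 0.711 and 0.328). Col4a1 had −0.17 (SE 0.14, adjusted p = 0.397), Col4a2 −0.13 (adjusted p = 0.167) and Col4a6 −0.34 (adjusted p = 0.104). With wild-type mouse 5 left out of the shared fit, Col4a1 had −0.17 with a smaller SE of 0.08. Its unadjusted edgeR p was then 0.0379 and its adjusted p 0.116. Of the 5 chains with the miR-17 match printed above, Col26a1 was called (lower) and the other 4 did not pass, a count near the 15.8% of all genes from which nothing is read. Col17a1 had −0.38 (adjusted p = 0.274), and the values of Col4a2, Col4a3 and Col4a4 are those just given.

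RGLS4326-treated kidneys were then set against wild type, using the same mice as the comparisons above, so that the values are only placed side by side. Of the 37 chains 30 were called (81.1%), where 64.9% of genes were called. There were 23 higher chains against 32.5% of genes higher, and 7 lower chains against 32.4% of genes lower. The median log2 fold change of the members was 0.99, and 0.00369 over all genes. Without wild-type mouse 5, 32 were called, where 62.2% of genes were called. In the first series of libraries alone 27 were called (51.7% of genes) and in the second 1 was called (0.411% of genes), where 23 had an unadjusted p under 0.05 and the median over the members was 0.69. In CPM, 5 chains were higher in every treated mouse than in every wild-type mouse (Col1a2, Col6a1, Col6a2, Col6a3 and Col16a1) and 0 were lower, where 14.8% of all genes did not overlap. Without mouse 9 the numbers were 18 higher and 3 lower (Col4a4, Col6a6 and Col13a1), where 33.4% of all genes did not overlap.

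By chain, the log2 fold change of RGLS4326 against wild type was 3.04 for Col1a1, 2.29 for Col1a2, 2.90 for Col3a1, 2.82 for Col12a1 and 3.99 for Col8a2. It was −3.73 for Col6a6, −1.08 for Col27a1, −0.93 for Col13a1 and −0.80 for Col19a1, all past the threshold over all mice. Without mouse 9 the value was −5.53 for Col6a6 (adjusted p = 2.1e-15). The call of Col13a1 was lost without wild-type mouse 3 (−0.72, adjusted p = 0.0825), and those of Col13a1 and Col19a1 were lost in the first and in the second series alone. In the type IV group Col4a2 stayed higher (0.41), Col4a3, Col4a4 and Col4a5 lower (−0.46, −0.64 and −0.47), and Col4a6 did not pass (0.48, adjusted p = 0.0524), though it did without wild-type mouse 2 (0.81, adjusted p = 0.0018) or 5 (0.58, adjusted p = 0.0339). Col4a1 had −0.01 (adjusted p = 0.954) and, without wild-type mouse 5, 0.55 (adjusted p = 2.1e-04).

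Ratios of 2 chains were compared within each mouse, where library scaling plays no part. Most pairs were chains of 1 molecule, which assemble at set proportions. The ratios of Col3a1 to Col1a1, Col4a3 to Col4a1 and Col15a1 to Col18a1 instead set chains of different molecules side by side. A ratio is of raw counts on the log2 scale, without regard to length. In all, 24 comparisons of 8 ratios were made and adjusted together. Two-sided permutation tests were exact against wild type and used 100000 resamples between the Pcy/CD1 groups.

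Type I collagen holds 2 α1 chains for each α2 chain. The log2 ratio of Col1a1 to Col1a2 was −1.40 ± 0.28 (SD, n = 5) in wild type and −0.53 ± 0.16 (SD, n = 12) with PBS, a difference of 0.87 (exact permutation p = 1.6e-04, adjusted p = 0.0019). With RGLS4326 it was −0.64 ± 0.25 (SD, n = 14), which differed from wild type by 0.76 (exact permutation, adjusted p = 0.0021) and from PBS by −0.12 (permutation, adjusted p = 0.237), or by −0.05 without mouse 9. Treated mouse 9 read −1.46, inside the wild-type range of −1.78 to −1.08, and all other treated mice lay above that range. Col3a1 against Col1a1 changed by −0.19 with PBS (exact permutation, adjusted p = 0.117).

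In type IV collagen the ratio of Col4a5 to Col4a6 fell from 3.72 ± 0.66 in wild type (SD, n = 5) to 2.37 ± 0.38 with PBS (SD, n = 12), a difference of −1.35 (exact permutation, adjusted p = 0.0021). It was 2.63 ± 0.33 with RGLS4326 (SD, n = 14), which differed from PBS by 0.26 (permutation, adjusted p = 0.117). The ratio of Col4a3 to Col4a1, the glomerular chain against the widespread one, was 0.28 ± 0.76 in wild type and −0.85 ± 0.47 with PBS, a difference of −1.13 (exact permutation, adjusted p = 0.0066) that was −1.47 without wild-type mouse 5. With RGLS4326 it was −0.39 ± 0.42, above PBS by 0.45 (permutation, adjusted p = 0.0412), and by 0.39 without mouse 9.

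The close head-to-head pairs were compared in the same way. Col4a3 against Col4a4 differed between PBS and wild type by −0.01 (exact permutation, adjusted p = 0.924). With RGLS4326 it was 0.20 ± 0.12 (SD, n = 14), above the 0.02 ± 0.16 with PBS (SD, n = 12) by 0.18 (permutation, adjusted p = 0.00675), and by 0.20 without mouse 9. The treated values ran from −0.05 (mouse 9) to 0.34 and those with PBS from −0.30 to 0.23. Col4a1 against Col4a2 was 0.53 ± 0.04 with PBS and 0.50 ± 0.04 with RGLS4326, and wild-type mice 1 to 4 read 0.29 to 0.38. Wild-type mouse 5 read 2.13, and with it the difference of PBS from wild type was −0.18 (exact permutation, adjusted p = 0.526). Without it the difference was 0.18 (exact permutation p = 5.5e-04).

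Col15a1 against Col18a1 rose from −3.05 ± 0.38 in wild type (SD, n = 5) to −2.19 ± 0.25 with PBS (SD, n = 12), a difference of 0.86 (exact permutation, adjusted p = 0.0019). It was −2.17 ± 0.36 with RGLS4326, 0.01 from PBS (permutation, adjusted p = 0.924) and 0.08 from it without mouse 9. Col6a1 against Col6a2 did not pass between PBS and wild type (0.15, exact permutation, adjusted p = 0.0788).

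**Figure D4:**
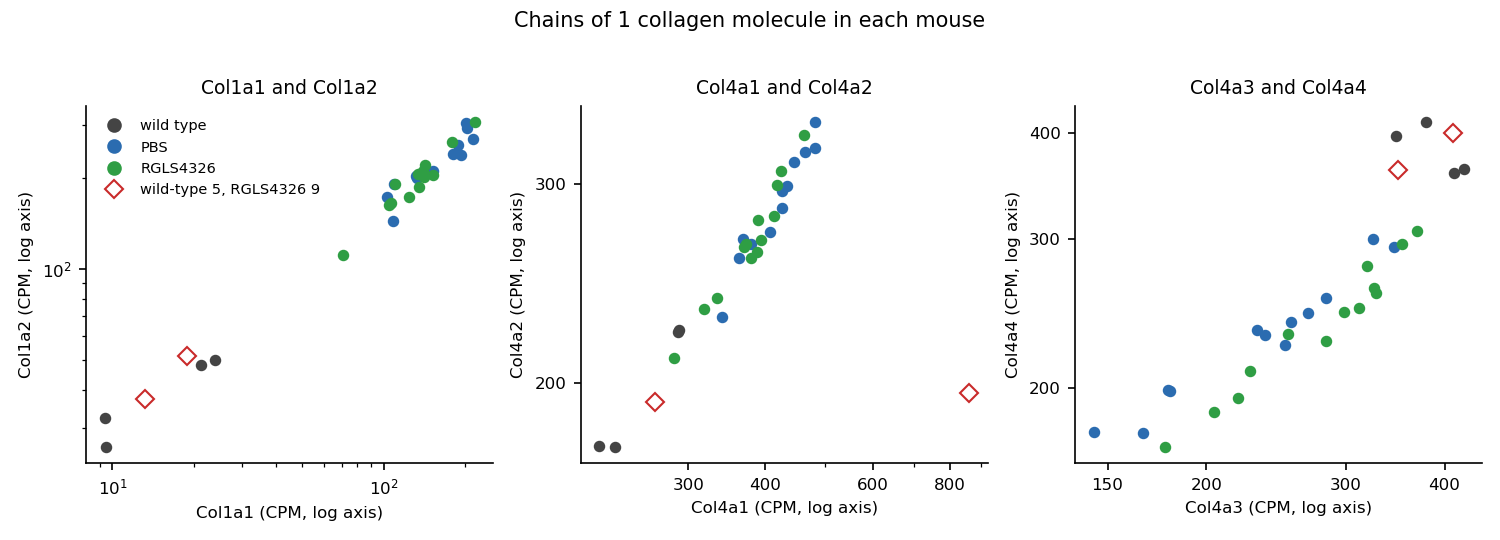
Level of 1 chain against its partner in each kidney (points, CPM, both axes logarithmic) for Col1a1 and Col1a2, Col4a1 and Col4a2, and Col4a3 and Col4a4, coloured by group. Open red diamonds are wild-type mouse 5, which leaves the line of Col4a1 and Col4a2, and RGLS4326-treated mouse 9. Within the PBS group the Pearson correlations are 0.93, 0.97 and 0.98.

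Across the mice of 1 group, 7 pairs of chains were related on log2(CPM + 0.5) values, which makes 14 correlations with the 2 Pcy/CD1 groups. Both chains of a pair come from the same library in each mouse and so share its depth, and permutation p-values were adjusted over the 14. Col4a1 and Col4a2 had Pearson's r = 0.97 and Spearman's rho = 0.99 with PBS, and 0.98 and 0.96 with RGLS4326 (permutation p = 1e-05 in each, the smallest that 100000 permutations can give). Col4a3 and Col4a4 had r = 0.98 and rho = 0.95 with PBS (permutation p = 2e-05 for each) and r = 0.94 and rho = 0.96 with RGLS4326 (permutation p = 1e-05 for each). Without the 2 mice farthest from the median of the first chain, r was 0.95 and 0.96 for the former pair and 0.97 and 0.89 for the latter.

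Col1a1 followed its partner, with r = 0.93 and rho = 0.94 for Col1a2 with PBS (permutation p = 1e-05 and 2e-05) and r = 0.99 and rho = 0.92 with RGLS4326 (permutation p = 1e-05 and 5e-05). Without the 2 farthest mice r was 0.91 and 0.95. Col1a1 and Col3a1 had r = 0.87 and rho = 0.88 with PBS (permutation p = 1e-04 and 3.5e-04) and r = 0.98 and rho = 0.91 with RGLS4326 (permutation p = 1e-05 and 4e-05), and r was 0.80 and 0.90 without the 2 farthest. Col6a1 and Col6a2 had r = 0.93 and rho = 0.84 with PBS (permutation p = 5e-05 and 0.00118) and r = 0.95 and rho = 0.88 with RGLS4326 (permutation p = 1e-05 and 1.1e-04). Without the 2 farthest r was 0.75 and 0.87.

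Col1a1 and Col4a1 had r = 0.93 and rho = 0.95 with PBS (permutation p = 4e-05 and 1e-05). With RGLS4326 they had r = 0.75 and rho = 0.61 (permutation p = 0.00159 and 0.0226, adjusted 0.00186 and 0.0264). This r was 0.58 without mouse 9 and 0.47 without the 2 farthest mice (mice 6 and 9, permutation p = 0.129). Its size and its passing of the threshold thus depended on these mice. Col1a1 and Col4a3 had r = −0.38 and rho = −0.28 with PBS (permutation p = 0.218 and 0.376) and r = −0.52 and rho = −0.60 with RGLS4326 (permutation p = 0.0485 and 0.0255, adjusted 0.0523 and 0.0275). The latter r was −0.62 without mouse 9 alone, −0.53 without the 2 farthest mice (permutation p = 0.0744) and −0.45 centred within the series (permutation p = 0.11). Centred within the series of libraries, the correlations of both groups ran from 0.75 to 0.99 for the 6 pairs other than Col1a1 and Col4a3.

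The genes that modify, export, process, crosslink or bind collagens were called in both directions. Of 41 such genes 38 were tested (P4ha3, Itga2 and Gp6 were not). With PBS against wild type 31 were called (81.6%), 23 higher and 8 lower, beside the 74.3% of all genes given above. Crosslinking enzymes were higher for 5 of 6, the genes of propeptide removal higher for 4 and lower for 1 of 7, and collagen receptors and uptake genes higher for 5 and lower for 1 of 6. Of the prolyl and lysyl modification genes 7 of 14 were higher and 4 lower, and of the chaperone and export genes 2 of 5 were higher and 2 lower.

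Adamts2, the protease that trims the amino end of fibrillar procollagens, rose from 3.06 ± 0.607 CPM (SD, n = 5) to 26.3 ± 6.48 CPM with PBS (SD, n = 12), a log2 fold change of 3.10 (SE 0.32, adjusted p = 4.6e-09). Loxl2, a crosslinking oxidase that acts on type IV collagen, rose from 5.60 ± 1.15 to 27.5 ± 6.003 CPM (log2 fold change 2.30, SE 0.24, adjusted p = 4.9e-09). P4hb, the shared subunit of the prolyl 4-hydroxylases and a general foldase, fell from 1143 ± 36.3 to 736 ± 60.9 CPM (log2 fold change −0.63, SE 0.06, adjusted p = 1.9e-09).

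With RGLS4326 against PBS 4 of the 38 were called (10.5%), beside the 15.8% of all genes. P4hb rose to 817 ± 63.6 CPM (SD, n = 14; log2 fold change 0.15, adjusted p = 0.0318), and Mia3, which loads procollagen into transport vesicles, rose by 0.19 (adjusted p = 0.0370). Creb3l1, a transcription factor of secretory cells, was lower by −0.29 (adjusted p = 0.0351). The fourth, Fkbp10, a procollagen chaperone, was lower by −0.48 (adjusted p = 0.0447) and was named after its value was seen. Without RGLS4326-treated mouse 9, 0 were called by edgeR and 10 had an unadjusted p under 0.05, and over all mice DESeq2 called 5.

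As a share of all gene counts, the 37 chains made up 0.186 ± 0.0273% in wild type (SD, n = 5), 0.319 ± 0.0514% with PBS (SD, n = 12) and 0.268 ± 0.0457% with RGLS4326 (SD, n = 14). The shares sum over the members and were not tested. Type IV chains held 0.119 ± 0.0265% in wild type, 0.133 ± 0.0147% with PBS and 0.122 ± 0.0137% with RGLS4326. Fibrillar chains held 0.0286 ± 0.00810%, 0.0920 ± 0.0204% and 0.0738 ± 0.0203% in the same order. The multiplexins held 0.0153 ± 0.00213%, 0.0537 ± 0.0115% and 0.0400 ± 0.0109%. Type VI chains held 0.0140 ± 0.00270% in wild type and 0.0105 ± 0.00226% with PBS, and Col6a6 made up most of that class in wild type.

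Shares depend on the totals they are taken of. With TMM-scaled totals the 37 chains summed to 2222 ± 289.6 CPM in wild type, 2936 ± 354 CPM with PBS and 2664 ± 334 CPM with RGLS4326, in the same order. The order of type IV chains turned, with 1422 ± 294 CPM in wild type (1293 ± 73.0 CPM without mouse 5), 1233 ± 122 CPM with PBS and 1223 ± 125 CPM with RGLS4326. Fibrillar chains summed to 341 ± 94.4, 846 ± 153 and 731 ± 168 CPM and type VI chains to 167 ± 33.5, 96.9 ± 18.5 and 95.9 ± 22.3 CPM. With unscaled totals the median log2 ratio of group means over all genes was 0.38 for PBS against wild type, and 0 of the called chains had another sign there, although the ratio of Col4a5 was then −0.05. For RGLS4326 against PBS that median was −0.12, and Col4a4 was among 5 chains, none called, whose sign turned.

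**Figure D5:**
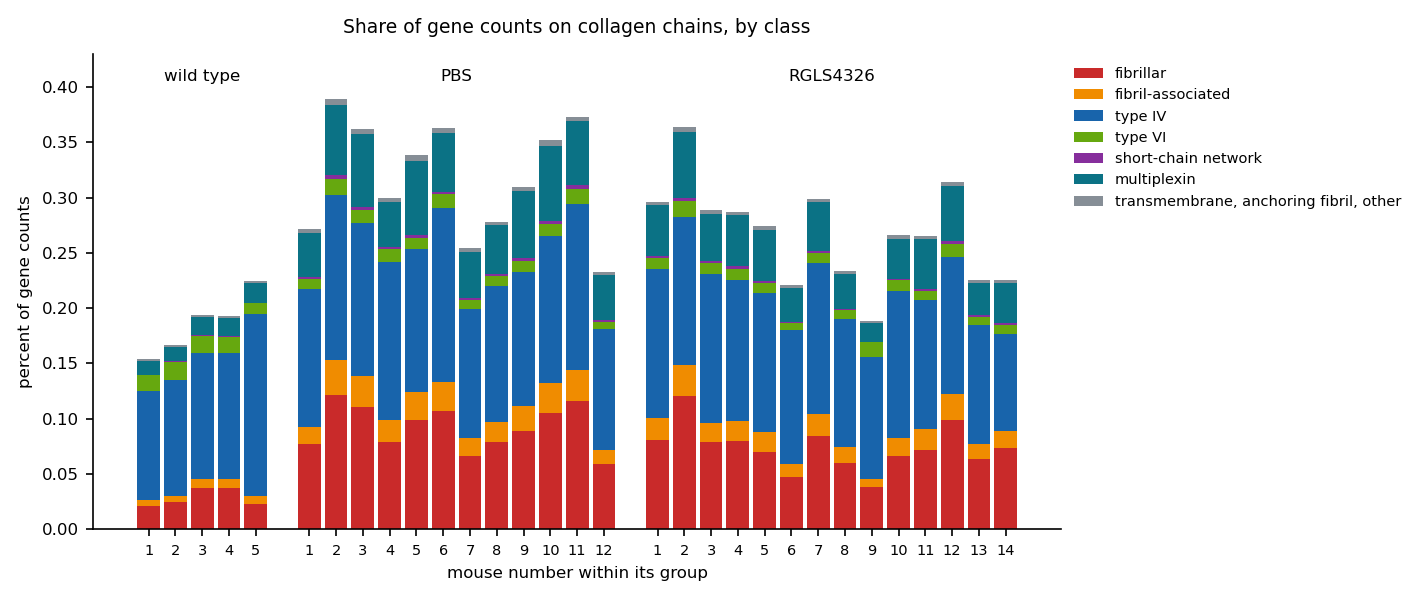
Percent of gene counts that fell on collagen chains in each kidney (1 bar a mouse, axis from 0), stacked by collagen class. Wild-type bars are mostly type IV, PBS bars reach 0.233 to 0.389%, and the bar of RGLS4326-treated mouse 9 has a fibrillar part of 0.0380%, near the highest wild-type one.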

How the data were processed

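Gene counts were as deposited: the authors trimmed reads of stranded mRNA libraries with Trim Galore, mapped them to GRCm38 with STAR and counted uniquely mapped reads per gene with HTSeq 0.6.1, with no normalization. The strand setting and annotation of the counting are not given in the sources used here, so overlapping and antisense genes (Col4a1 with Col4a2 at their first exons, Col9a3 with Tcfl5) may share reads. Rows that name no gene were left out: 8.39 to 10.1% of each total lay outside genes, 17.8 to 21.2% mapped to several places and 0.305 to 0.411% was ambiguous.

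Genes passing filterByExpr were scaled by TMM and tested with edgeR 4.0.16 in R 4.3.3 (glmQLFit, glmQLFTest, Benjamini-Hochberg adjustment), with 1 coefficient per group and no covariate. An approximate standard error was taken from each log2 fold change and its F statistic (the size of the former over the root of the latter). Ratios used a pseudocount of 0.5 counts. Lengths, starts and 3′UTRs came from GENCODE principal transcripts, and Python 3.11.15 with scipy 1.17.1 ran the permutation tests. The steps were tested on simulated counts. Alternatives covered DESeq2 1.42.0, scaling, filters, groups fitted, series of libraries (3 runs of library numbers in the names), the replicate block and each mouse left out. Overlap counts without RGLS4326-treated mouse 9 and levels per kilobase without that mouse or wild-type mouse 5 were added after seeing their values, as were class sums and group ratios under both scalings and the promoter background of tested genes.

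The members, the lists and the tests were chosen with earlier results of these data known. Per-mouse values were given for Col1a1, Col1a2, Col3a1, the type IV chains, the 5 largest rises and falls called with PBS against wild type and the chains called with RGLS4326 against PBS, and 3 machinery genes per comparison by smallest p.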

Additional observations from a re-analysis of the deposited data

Results flagged for a closer look

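In 57 measures of the wild-type group, 1 mouse stood apart from the other 4 in 8, where chance alone gives about 1 in 20. Mouse 5 accounted for 5 of these. They were Col4a1 at 859.6 CPM (the others 215 to 289.6 CPM), the log2 ratio of Col4a1 to Col4a2 at 2.133 (0.29 to 0.38), that of Col4a3 to Col4a1 at −1.067 (0.51 to 0.82), and the percent of gene counts on type IV chains at 0.1653% (0.0986 to 0.114%) and on Col4a1 and Col4a2 together at 0.09012% (0.0324 to 0.0432%). They all hold the Col4a1 count of that mouse. Mouse 2 had the lowest Col15a1, at 11.17 CPM against 21.2 to 22.9 CPM in the others. Mouse 1 had the lowest Col24a1, at 1.298 CPM against 2.55 to 3.02 CPM. Mouse 3 had the highest Col9a3, at 0.5324 CPM against 0.238 to 0.301 CPM, which is a gene of few counts.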

How the results depend on the processing

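Counts of chains called against wild type kept within 1.5 times, at 29 to 34 with PBS and at 27 to 34 with RGLS4326, the lowest in the first series of libraries alone (with RGLS4326 also with the size threshold), except that the second series alone called 1 collagen and 0 machinery genes with RGLS4326. The 4 collagens called between RGLS4326 and PBS became 2 with the size threshold, 2 with the 2 groups alone, 7 with DESeq2 (adding Col6a6, Col7a1 and Col16a1, beside 21.1% of all genes) and 0 in each series alone. Leaving out 1 PBS-treated mouse gave 0 to 8 and 1 RGLS4326-treated mouse 1 to 8, beside 4.08 to 25.5% and 6.76 to 26.4% of all genes. The 4 machinery genes became 0 with the size threshold, 1 with the 2 groups alone and 0 in each series alone, and ran from 0 to 8 and from 0 to 11 with mice left out. The cause was not tested.

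Same-numbered mice are different animals whose deviations did not go together (correlations from −0.42 to 0.43), and a replicate block left 0 collagens and 0 machinery genes called with treatment (303 genes of all called, 7 collagens and 14 machinery genes at an unadjusted p under 0.05). With the block, the log2 ratio of Col4a1 to Col4a2 changed by −0.02936 with treatment, that of Col15a1 to Col18a1 by −0.01015, and Col4a1 of RGLS4326 against wild type by 0.2846.

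Directions turned mostly for small estimates, the exception being Col6a6 with treatment (1.77 over all mice). With the first series alone Col14a1 (0.3434) and Col24a1 (0.3171) turned in PBS against wild type, and Col4a4 (−0.03455) and Col6a6 (−0.7619) with treatment. Col4a5 turned in the second alone (0.1483), and Col6a6 in the third alone (−0.1391) and without RGLS4326-treated mouse 9 (−0.02278), and ran up to 1.894 with other mice left out. Col4a1 of RGLS4326 against wild type turned with upper-quartile factors (0.07573), with the 2 groups alone (0.001848), with series as a covariate (0.008193), in the first (0.922) and second series alone (0.3067), and ran from −0.04099 to 0.0223 with treated mice left out (0.007402 without mouse 6, 0.002783 without mouse 13, 0.01702 without mouse 14) and from −0.1552 to 0.5482 with wild-type mice left out.

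Among ratios, unadjusted permutation tests set the side of the threshold. Leaving out wild-type mice gave −0.2531 to −0.1419 (PBS) and −0.2303 to −0.1191 (RGLS4326) for Col3a1 to Col1a1, past the threshold without mouse 3. Col4a1 to Col4a2 ran from −0.2834 to 0.1775 and from −0.3189 to 0.142 against wild type, turning without mouse 5. With treatment it was −0.03408 averaged within series and −0.03259 without mouse 9, neither past the threshold. Col4a3 to Col4a4 ran from −0.0654 to 0.03806 with PBS (0.0325 without wild-type mouse 3) and from 0.1195 to 0.2229 with RGLS4326. Col4a3 to Col4a1 of RGLS4326 against wild type ran from −1.014 to −0.5425 and was −0.4611 averaged within series. Col6a1 to Col6a2 ran from 0.1057 to 0.2246 with PBS and from 0.1364 to 0.2553 with RGLS4326, and averaged 0.1019 and 0.1286 within series. With RGLS4326 the correlation of Col1a1 and Col4a3 was −0.5329 without the 2 farthest mice and −0.4475 centred within series, and that of Col1a1 and Col4a1 was 0.4656 without the 2 farthest mice, none past the threshold. The wild-type share of counts on collagens was 0.2222% with TMM-scaled totals. Upper-quartile factors put the median of all genes at 0.13 with PBS and 0.10 with RGLS4326 against wild type, from 0.01 and 0.00369. The number of counts limits the precision of scarce chains such as Col9a3, Col6a4 and Col13a1, which stayed below 3 CPM in every mouse.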
